A study of Mus musculus with 6 samples.

Results

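The genes described here are 8 genes of red blood cells, read out of the 20140 genes of a bulk liver RNA-seq series: the α-globin genes Hba-a1 and Hba-a2, the β-globin genes Hbb-bs and Hbb-bt, the membrane protein genes Slc4a1 and Epb42, and the transcription factor genes Klf1 and Gata1. They were picked by name because they were higher in the livers of 1 group, so their values in that group are given as a description without a test. All 8 were present in the count table. Livers were taken on day 21 from 3 groups, with 2 livers per group. The control group carries PBS in place of a cell line in its labels and its libraries are named sham. The intra-C and intra-S groups both received CT26, a mouse colorectal carcinoma cell line that arose in BALB/c mice. The labels do not spell out either short name, and the study's description of its models ties intra-C to implantation in the cecum and intra-S to injection into the spleen, the route it used for liver metastasis. By the methods, the mice were between 6 and 10 weeks old and of the BALB/c strain for CT26, and no genetic change is named for any of the 3 groups. The route, the site of the tumor and the amount of tumor changed together with the group, so that they cannot be told apart. Each library was made from the polyadenylated RNA of all liver cells, blood in the vessels included unless it was washed out, and washing of these livers was not stated in the sources used here.

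Red cells carry oxygen on hemoglobin, a tetramer of α- and β-globin chains that each hold a heme. The progenitors that make them depend on erythropoietin and on the transcription factors GATA1 and KLF1, which bind GATA and CACCC sequences in the promoters and enhancers of globin, heme and membrane genes. Mouse red cells lose their nucleus at the end of maturation and leave the marrow as reticulocytes, which keep globin mRNA for a short time after many other transcripts are lost. The liver is the main site of red cell production in the fetus, and in adult mice the marrow and the spleen make red cells, while the macrophages of the liver and spleen clear old ones.

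The raw counts summed to between 32838321 and 43368309 per liver. Values are given as raw counts, as CPM, the counts scaled by library size and normalized with the trimmed mean of M values (TMM), or as TPM, which is also divided by gene length and is used here to compare genes. The 8 hepatocyte markers fixed for this tissue (Alb, Ttr, Apoa1 and others) summed to between 112170 and 161304 TPM over the 6 livers, and all 8 were detected. In a whole tissue, fewer cells of a type and less RNA per cell cannot be told apart. All 8 red cell genes passed the filter on low counts. Epb42 passed it through the intra-S livers alone and Gata1 with their help, as only 1 of the other 4 livers had 10 or more counts of it. The counts of both genes in intra-C and control livers are therefore given without a test.

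The globin genes formed the most abundant class and were about 4-fold higher in intra-S livers than in control livers. Hba-a1 (chr11:32283672-32284486, positions here being those of RefSeq on build GRCm38.p6) was at 77 and 139 CPM in the control livers, at 141 and 82.8 CPM in the intra-C livers and at 575 and 376 CPM in the intra-S livers. Hbb-bs (chr7:103826523-103827928) was at 123 and 214 CPM in the control livers, at 223 and 146 CPM in the intra-C livers and at 864 and 672 CPM in the intra-S livers. In both genes the lower intra-S liver was above every other liver, and the intra-C livers lay inside the range of the control livers or close to its ends. Hbb-bt (chr7:103812524-103813923), the neighbouring adult β-globin gene, was at 17.9 and 39.4 CPM in control, 30.7 and 19.9 CPM in intra-C and 170 and 102 CPM in intra-S livers. Hba-a2 (chr11:32296492-32297310), the other adult α-globin gene, was at 5.00 and 8.80 CPM in control, 6.59 and 3.06 CPM in intra-C and 26.4 and 23.2 CPM in intra-S livers. The intra-S livers again stood above the other 4 livers in both genes.

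**Figure D1:**
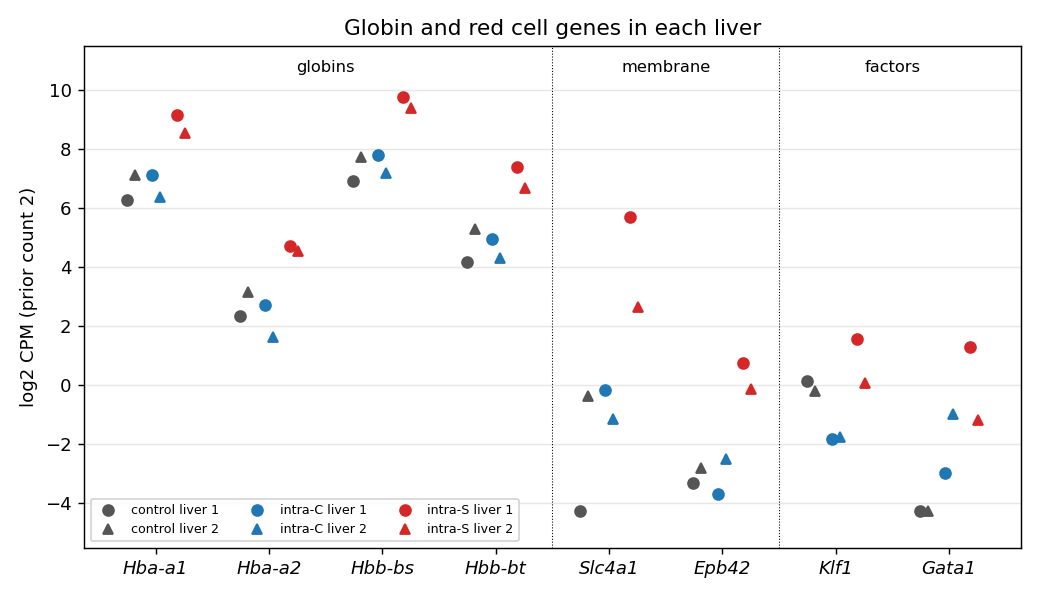
Level of each of the 8 genes in each liver, on the log2 CPM scale with a prior count of 2 (each circle is liver 1 and each triangle liver 2 of a group). The globins of both intra-S livers lie together above the other livers, whereas Slc4a1, Klf1 and Gata1 are far apart in the 2 intra-S livers (51.9 and 6.18 CPM for Slc4a1).

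The fitted difference between intra-S and control livers was 2.14 ± 0.42 (SE) on the log2 scale for Hba-a1, 1.84 ± 0.43 for Hba-a2, 2.19 ± 0.36 for Hbb-bs and 2.24 ± 0.47 for Hbb-bt. These are 4.39-, 3.59-, 4.57- and 4.74-fold. The spread between the control livers was 1.74- to 2.20-fold, with control liver 2 the higher in each of the 4 genes, and the intra-S livers differed by 1.14- to 1.66-fold. The globins together took 0.0251% and 0.0457% of all counts in the control livers, 0.0363% and 0.0248% in the intra-C livers and 0.144% and 0.116% in the intra-S livers. Setting aside control liver 2 gave 2.93 for Hbb-bt, and the other globins moved by less than 1.5-fold without any 1 liver.

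The balance between the chains varied little. The summed TPM of the β-globin genes was 1.50 times that of the α-globin genes in both control livers, 1.51 and 1.69 times in the intra-C livers and 1.51 and 1.70 times in the intra-S livers. The livers numbered 2 of the intra-C and intra-S groups had the higher ratios, and these 2 groups overlapped. Both control livers lay below all livers of these groups, though liver 1 of each was close to the controls. Hbb-bt gave 12.7% and 15.6% of the β-globin counts in control, 12.1% and 12.0% in intra-C and 16.4% and 13.2% in intra-S livers. Hba-a2 gave 6.10% and 5.94% of the α-globin counts in control, 4.48% and 3.57% in intra-C and 4.39% and 5.80% in intra-S livers, so that the control livers held the highest shares. How the reads were divided between the copies is uncertain, because only uniquely aligned reads were counted. Reads that fit both copies were left out, so the globin totals may be too low, by an amount that was not tested. The coding sequences of Hba-a1 and Hba-a2 in the reference differ at 1 of 429 bases and those of Hbb-bs and Hbb-bt at 1 of 444 bases. In addition, BALB/c mice carry another haplotype of the β-globin locus than the C57BL/6J reference genome, and the part of this difference in the β-globin counts was not tested.

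The regions before Hba-a1, Hbb-bs and Hbb-bt are shown because the globins had the highest levels of the 8 genes. Their matches to the letters searched for GATA1 and KLF1 also differ. Each sequence is the 250 bases before the RefSeq start on build GRCm38.p6 (mm10), 5′ to 3′ on the strand of the gene, and capitals mark the motif matches on either strand. The GATA motif was searched with the letters AGATAA, and also with a T in place of their first A, that is TGATAA. For the CACCC motif the letters ACACCC were searched, and the motifs do not overlap. CACCC after another base, as in the windows of Hba-a1 and Hbb-bt, was not counted, nor was GATAA after a G in Hbb-bt. The differences between windows therefore hold for the exact letters searched only. The windows are chr11:32283422-32283671 (plus strand) for Hba-a1, chr7:103827929-103828178 (minus strand) for Hbb-bs and chr7:103813924-103814173 (minus strand) for Hbb-bt.
Hba-a1: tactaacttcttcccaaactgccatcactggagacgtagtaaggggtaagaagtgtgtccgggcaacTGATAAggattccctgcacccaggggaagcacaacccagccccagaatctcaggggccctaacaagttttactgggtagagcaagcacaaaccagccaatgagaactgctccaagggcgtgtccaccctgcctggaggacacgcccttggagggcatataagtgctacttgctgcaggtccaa
Hbb-bs: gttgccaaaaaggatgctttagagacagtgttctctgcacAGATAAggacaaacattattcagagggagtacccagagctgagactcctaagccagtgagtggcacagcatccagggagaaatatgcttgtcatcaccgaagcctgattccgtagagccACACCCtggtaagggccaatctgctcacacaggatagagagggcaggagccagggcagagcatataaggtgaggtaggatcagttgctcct
Hbb-bt: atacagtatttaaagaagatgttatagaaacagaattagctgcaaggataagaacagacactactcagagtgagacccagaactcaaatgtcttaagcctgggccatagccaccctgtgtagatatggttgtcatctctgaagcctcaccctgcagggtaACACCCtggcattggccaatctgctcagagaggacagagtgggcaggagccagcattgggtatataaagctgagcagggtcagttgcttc

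Hba-a1 held a GATA match at 183 to 178 bases before its start and no ACACCC. The window of Hba-a2 shares a run of 247 bases with it and held the same GATA match at 186 to 181 bases. Hbb-bs held a GATA match at 210 to 205 bases and a CACCC match at 91 to 86 bases, whereas Hbb-bt held only the CACCC match, at 90 to 85 bases. Of 32851 promoter windows of this length, 16.6% held a GATA match, 13.9% a CACCC match and 2.08% both. All 4 globin windows also held TATAA between 30 and 23 bases and CCAAT between 91 and 71 bases before the start on the strand of the gene, letters found on either strand in 22.8% and 33.8% of all windows. A match is a description of the letters and was not tied to binding here.

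The membrane protein genes were far less abundant per length than the globins, and Slc4a1 differed far more between the intra-S livers. Slc4a1 (chr11:102348820-102365281) encodes band 3, the anion exchanger and main membrane protein of red cells. It had 0 and 32 counts in the control livers, 33 and 13 in the intra-C livers and 1779 and 252 in the intra-S livers. Both intra-S livers were above the other 4, and intra-S liver 1 was at 51.9 CPM against 6.18 CPM in intra-S liver 2. Epb42 (chr2:121017891-121036877) encodes protein 4.2, which ties band 3 to the ankyrin of the membrane skeleton. It had 2 and 4 counts in control, 1 and 4 in intra-C and 56 and 35 in intra-S livers. The fitted differences between intra-S and control livers were 6.28 ± 1.52 on the log2 scale for Slc4a1 and 4.08 ± 0.93 for Epb42. For Slc4a1 the estimate rests on control liver 2, since control liver 1 had no count, and it was 13.09 without control liver 2, where the remaining control is at 0 and the fitted value is no bound. Setting aside intra-S liver 1 gave 4.06 for Slc4a1 and 3.55 for Epb42, and setting aside control liver 1 gave 5.32 for Slc4a1 and intra-S liver 2 gave 7.11.

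The transcription factor genes did not move as a pair. Klf1 (chr8:84901982-84905291) encodes the erythroid Krüppel-like factor that binds CACCC sequences. It had 43 and 36 counts in the control livers, 9 and 8 in the intra-C livers and 100 and 41 in the intra-S livers. On the CPM scale intra-S liver 2, at 1.01, lay between the control livers, at 1.06 and 0.815, and only intra-S liver 1, at 2.92, was above them. Gata1 (chrX:7959260-7976663) encodes the GATA factor of red cell, megakaryocyte, mast cell and eosinophil progenitors. It had no count in either control liver, 3 and 15 counts in the intra-C livers and 82 and 16 in the intra-S livers. Its mean level in intra-S livers was at least 19.6-fold higher than the level that 3 counts in each control liver would give, and that of the lower intra-S liver at least 5.54-fold. Klf1 was 1.06 ± 0.62 higher on the log2 scale in intra-S than in control livers, 0.10 higher without intra-S liver 1 and 1.64 higher without intra-S liver 2.

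The promoters of Epb42 and Klf1 are shown for comparison with the globin promoters, since both genes are known to be switched on in the same cells. Epb42 was read at chr2:121036878-121037127 (minus strand) and Klf1 at chr8:84901732-84901981 (plus strand), with the same length, build and capitals.
Epb42: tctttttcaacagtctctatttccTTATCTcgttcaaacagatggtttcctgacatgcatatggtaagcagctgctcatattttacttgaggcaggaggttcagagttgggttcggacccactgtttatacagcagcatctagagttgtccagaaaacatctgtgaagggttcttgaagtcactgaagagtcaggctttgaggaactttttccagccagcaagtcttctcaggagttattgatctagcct
Klf1: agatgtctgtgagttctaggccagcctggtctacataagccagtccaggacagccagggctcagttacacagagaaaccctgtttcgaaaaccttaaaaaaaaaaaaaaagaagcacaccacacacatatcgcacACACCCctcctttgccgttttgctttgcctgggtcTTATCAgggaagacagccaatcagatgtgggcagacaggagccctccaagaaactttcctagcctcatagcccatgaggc

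Epb42 held a GATA match on the opposite strand at 226 to 221 bases and no ACACCC. Klf1 held a GATA match on the opposite strand at 80 to 75 bases and a CACCC match at 115 to 110 bases. By the letters searched, Klf1 and Hbb-bs were the windows with both matches. The window of Gata1 (chrX:7967911-7968160, minus strand) lies before a start that is inside the gene span given above. It held a CACCC match at 75 to 70 bases and no GATA match. A window was read for 7 of the 8 genes, all but Slc4a1.

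The livers of 2 of the groups did not overlap in 7 of the 8 genes when intra-S was set against control, with Klf1 the exception, and in 7 of 8 when intra-S was set against intra-C, with Gata1 the exception. Over all 16370 genes tested, 30.4% were higher without overlap in intra-S than in control livers and 21.9% in intra-S than in intra-C livers. Because the genes were chosen on these differences, nothing is read from their counts.

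The globins were close to each other in the 2 intra-S livers, whereas Slc4a1, Klf1, Gata1 and 25 of 76 other tested red cell genes were higher in intra-S liver 1 by more than 1 log2 unit. On the log2 CPM scale, intra-S liver 1 was above intra-S liver 2 by 0.61 for Hba-a1, 0.19 for Hba-a2, 0.36 for Hbb-bs and 0.73 for Hbb-bt. The same difference was 3.06 for Slc4a1, 0.89 for Epb42, 1.49 for Klf1 and 2.46 for Gata1. Over all tested genes the median difference was -0.03, and 11.6% of genes were higher by more than 1 log2 unit in intra-S liver 1. Of the 18 other membrane genes tested, 11 exceeded 1 log2 unit, with a median of 1.61 and the largest value, 4.07, for Rhag, the Rh-associated glycoprotein. Among the 17 maturation genes it was 7, among the 12 genes of erythropoietin and iron signalling 3, among the 16 other transcription factor genes 3 and among the 13 heme synthesis genes 1. The medians of the factor and signalling genes were both 0.64, within the range of the globins, and that of the heme genes was -0.33. Of the 8 hepatocyte markers 3 exceeded 1 log2 unit, with a median of 0.38. Of 8 markers of macrophages that clear red cells 2 did, with a median of -0.54. The median of 8 platelet markers was -0.295 and that of 6 B cell markers -1.21, and 0 of them exceeded 1 log2 unit. With 1 pair of livers, these differences have no replicate check, and what else differed between the livers was not tested.

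**Figure D2:**
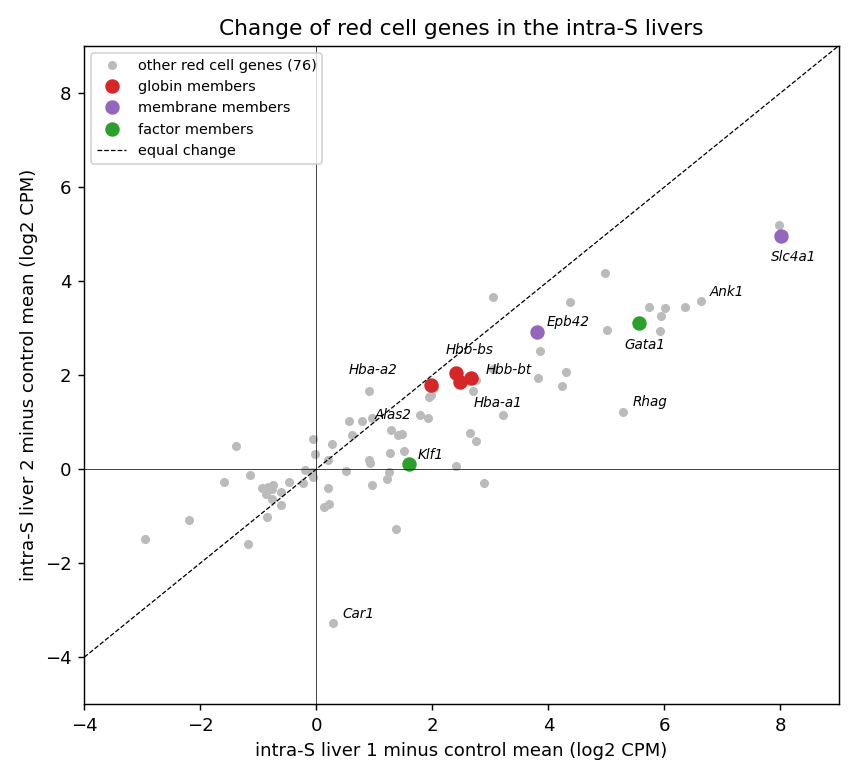
Difference of each tested red cell gene from the mean of the control livers (log2 CPM, prior count of 2) in intra-S liver 1 (x axis) and intra-S liver 2 (y axis), with the dashed line at equal difference. The globins and Alas2 lie near the line at about 2 log2 units, whereas Slc4a1 (8.02 and 4.96), Ank1 and Rhag lie below it.

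The ratio between the classes changed accordingly. The 4 globins summed to 826 and 1486 TPM in the control livers, 1263 and 844 TPM in the intra-C livers and 4767 and 3654 TPM in the intra-S livers. Slc4a1 and Epb42 summed to 0.0267 and 0.406 TPM in control, 0.364 and 0.241 TPM in intra-C and 20.8 and 2.96 TPM in intra-S livers. Klf1 and Gata1 summed to 1.62 and 1.24 TPM in control, 0.366 and 0.796 TPM in intra-C and 5.52 and 1.65 TPM in intra-S livers. By TPM of uniquely aligned reads, the globins were 229 times the membrane pair in intra-S liver 1 and 1232 times in intra-S liver 2. They were 3466 and 3502 times that pair in the intra-C livers and 3657 times in control liver 2. Reads that fit both copies of a globin pair were not counted, so these ratios may be too low. In control liver 1 the membrane pair rested on 2 counts and the ratio has no use.

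**Figure D3:**
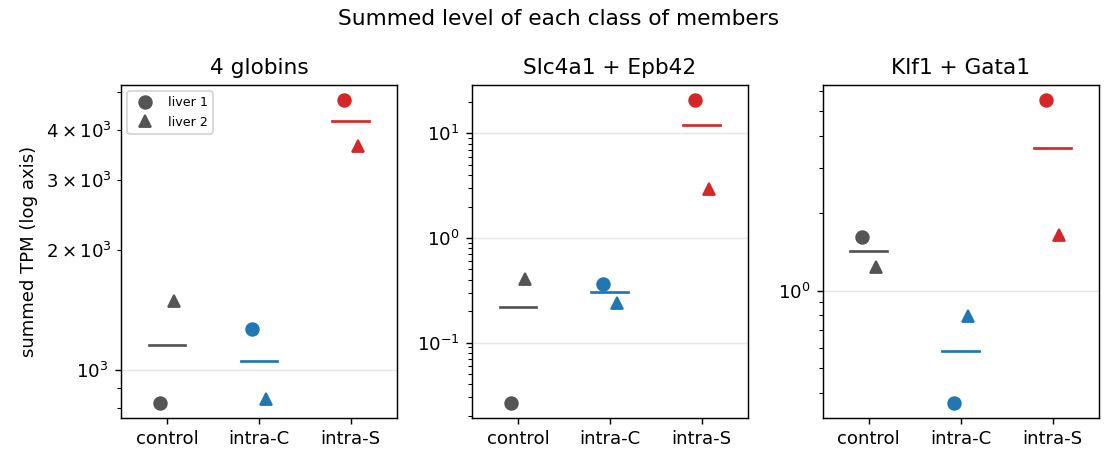
Summed TPM of the globins, the membrane pair and the factor pair in each liver on log axes, with a bar at the mean of the 2 livers of each group. Globins were at 4767 and 3654 TPM in intra-S livers, the membrane pair at 20.8 and 2.96 TPM, and the factor pair of intra-S liver 2 (1.65 TPM) was close to the controls (1.62 and 1.24 TPM).

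The mean log2 level of the globins minus that of the other 4 genes was 7.85 and 7.74 in the control livers, 7.82 and 6.47 in the intra-C livers and 5.44 and 6.94 in the intra-S livers. It was therefore 1.61 log2 units lower in intra-S than in control livers, so that the other 4 genes were on average further above the controls than the globins were, with Klf1 the exception. The size rests on single livers, as it was -0.86 without intra-S liver 1 and -2.36 without intra-S liver 2. On the log2(TPM + 1) scale, which compresses levels under 1 TPM, the same quantity was 0.62 and had the opposite sign.

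The comparison of intra-C with control livers did not enter the choice of the genes and can be tested, although both comparisons use the same control livers. edgeR's quasi-likelihood test with Benjamini-Hochberg adjustment over 16370 genes called 0 of 6 of the genes in either direction, with Epb42 and Gata1 left aside because they passed the filter through the intra-S livers. Of all genes tested, 4.92% were called higher and 2.38% lower. Klf1 alone of the 6 had an unadjusted p under 0.05, and was lower, and DESeq2 also called 0. The fitted log2 differences of the globins were 0.05 ± 0.40 for Hba-a1 (adjusted p = 0.96), -0.51 ± 0.43 for Hba-a2 (adjusted p = 0.49), 0.14 ± 0.35 for Hbb-bs (adjusted p = 0.84) and -0.18 ± 0.45 for Hbb-bt (adjusted p = 0.83). These differences are smaller than the spread between the 2 control livers, and the signs of Hba-a1 and Hbb-bs changed with the scaling. Slc4a1 differed by 0.76 ± 1.47 (adjusted p = 0.78).

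Klf1 and Gata1 were the 2 of the 8 genes without overlap between intra-C and control livers, against 34.4% of all tested genes higher and 34.0% lower in this way. Both intra-C livers, at 0.229 and 0.247 CPM, were below both control livers, at 1.06 and 0.815 CPM. The difference was -1.96 ± 0.68 on the log2 scale, with an adjusted p of 0.13 in the fit over all livers. It ranged from -2.22 to -0.88 over 14 alternatives. Klf1 was called lower in the fit of these 2 groups alone. In that fit 14.2% of all genes were called lower, against 2.38% in the main fit. Gata1 moved the other way, from no count in the control livers to 3 and 15 counts, a mean level at least 3.81-fold higher than the 3-count floor of the control livers. The lower intra-C liver, at 3 counts, was at the level of that floor.

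Between intra-S and intra-C livers the differences were close to those against control for the globins. They were 2.09 ± 0.42 for Hba-a1, 2.36 ± 0.44 for Hba-a2, 2.06 ± 0.36 for Hbb-bs and 2.42 ± 0.47 for Hbb-bt on the log2 scale. They were 5.52 ± 1.45 for Slc4a1, 4.05 ± 0.94 for Epb42, 3.02 ± 0.69 for Klf1 and 2.37 ± 1.24 for Gata1. Klf1 was thus further above intra-C than above control livers. The values of Gata1 and Slc4a1 rest on intra-S liver 1, and were 0.56 and 3.29 without it, against 3.16 and 6.35 without intra-S liver 2. That of Klf1 was 2.06 without intra-S liver 1. Those of Epb42 and Gata1 were 5.44 and 4.12 without intra-C liver 2 and 3.30 and 1.57 without intra-C liver 1. Setting aside intra-C liver 1 also moved Hba-a2 and Slc4a1 to 3.02 and 6.16.

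Other genes of red cells were taken from 1 hand-written list of 91 genes, which was drawn up from general knowledge with earlier results of these data known. Of these, 82 were present and 76 were tested. Of the 76, 12 would not have passed the filter on low counts without the intra-S livers, and no test in the intra-S livers is read for them. Among the other 64, edgeR called 9 higher (14.1%) and 2 lower (3.12%) in intra-S than in control livers, against 6.79% and 4.13% of the 15649 genes that passed the filter without the intra-S livers. The median log2 difference of the 64 was 0.58, against 0.01 over those 15649 genes. With all genes tested, the counts were 13 of 76 higher and 2 lower, against 6.78% and 3.95% of 16370. In intra-C against control livers edgeR called 8 of 76 higher and 2 lower, none of which needed the intra-C livers to pass the filter, against 4.92% and 2.38% of all genes and 5.06% and 2.46% of those that passed without the intra-C livers, with a median of 0.08 against 0.01 over all genes. In intra-S against intra-C livers it called 0 of the 64 in either direction, as it did over all genes (0.00%), while 14 were above and 3 below at an unadjusted p under 0.05 (6.70% and 6.70% of the 15649 genes, and 6.99% and 6.41% of all 16370), and DESeq2 called 4 higher and 1 lower (1.33% and 1.81%). The number called depended on single livers over the list and over all genes alike. In intra-S against control livers 27 of the 64 (42.2%) were called higher without intra-S liver 2, against 18.3% of the 15649 genes, 1 without either intra-C liver, against 2.04% and 1.80%, and 0 without either control liver, against 0.00%. In intra-C against control livers 13 and 14 of 76 were called higher without intra-S liver 1 or 2, against 15.5% and 15.3% of all genes, a share near that background. Without any 1 liver of the groups compared it was 0, as it was over all genes, so that nothing is read from it.

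**Figure D4:**
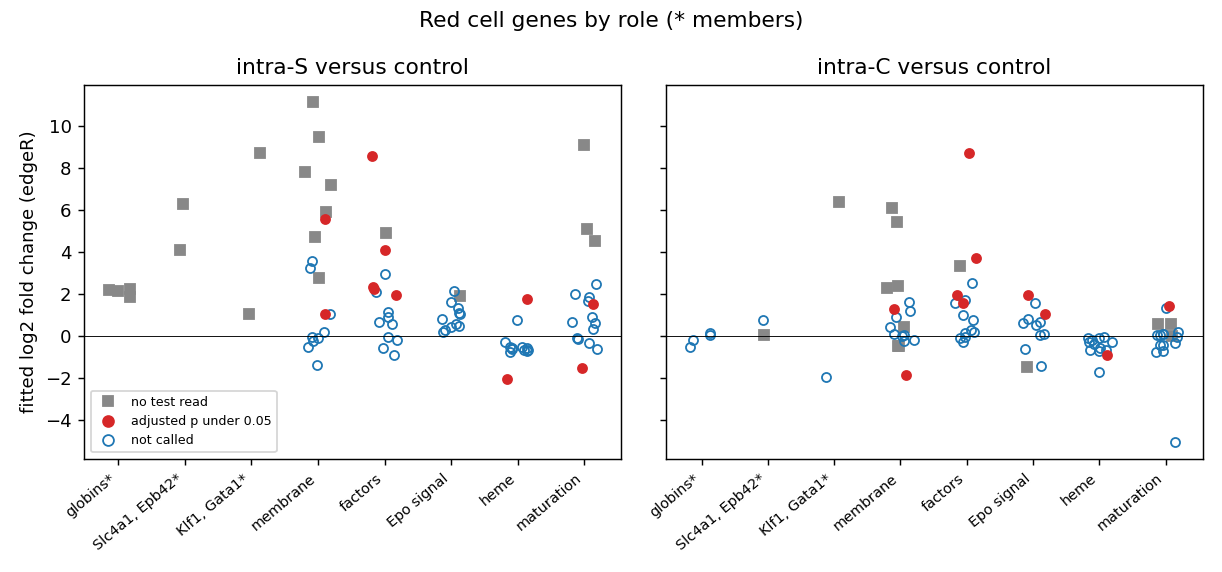
Fitted log2 difference of each tested red cell gene by role in intra-S against control livers (left) and intra-C against control livers (right). Filled red circles passed an adjusted p of 0.05, open circles did not, and grey squares mark genes for which no test is read, which are the 8 genes on the left and, in both panels, the genes that would not pass the filter if the livers of 1 tumor group were left out. Values far above 8 belong to genes with no count in the control livers and are no bound.

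Membrane and cytoskeleton genes held some of the largest differences. Of 18 tested, 11 passed the filter without the intra-S livers. Over all genes that passed it in this way, 6.79% were called higher in intra-S than in control livers and 4.13% lower. Of the 11, 2 were called higher and 0 lower, with a median of 0.17. The other 7, Ank1, Add2 and Rhag among them, needed the intra-S livers to pass it and are described without a test. Ank1, the ankyrin that binds band 3, had 0 and 1 counts in control livers, 2 and 3 in intra-C livers and 209 and 28 in intra-S livers. Add2, β-adducin, had no count in control livers and 143 and 21 in intra-S livers, at least 33-fold above the floor on average and at least 7.27-fold in the lower liver. In both genes the intra-S livers were above all others and intra-S liver 1 was far above liver 2.

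Not every membrane gene followed that pattern. Aqp1, a water channel also made by liver endothelial cells and bile ducts, was at 36.3 and 37.8 CPM in control, 96.1 and 83.5 CPM in intra-C and 71.9 and 78.6 CPM in intra-S livers. It rose in both tumor groups, by 1.28 ± 0.19 (edgeR adjusted p = 0.019) in intra-C and by 1.02 ± 0.19 (adjusted p = 0.026) in intra-S livers on the log2 scale. Gypc, glycophorin C, fell by 1.88 in intra-C livers on the log2 scale (SE 0.38, edgeR adjusted p = 0.038), from 19.5 and 18.7 CPM to 3.39 and 7.02 CPM, and its log2 difference was between -2.47 and -1.44 in the fits without 1 liver. In intra-S livers it was at 8.37 and 6.30 CPM, also below both control livers, with a difference of -1.38 ± 0.37 that was not called (adjusted p = 0.063).

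Of 16 other transcription factor genes tested, 15 passed the filter without the intra-S livers and 15 without the intra-C livers. Of these, 5 rose in intra-S and 4 in intra-C livers, and none fell. Over all genes that passed in the same way, 6.79% rose and 4.13% fell in intra-S livers, and 5.06% and 2.46% in intra-C livers. Myb, a factor of immature blood progenitors of several lineages, was at 0 in both control livers, at 1.35 and 1.39 CPM in intra-C livers and at 1.57 and 0.883 CPM in intra-S livers, on average at least 19.3- and 17.3-fold above the floor (edgeR adjusted p = 0.017 and 0.015). Nfe2, a factor of red cell precursors, megakaryocytes and neutrophils, rose by 3.72 ± 0.77 in intra-C (adjusted p = 0.041) and by 4.12 ± 0.78 in intra-S livers (adjusted p = 0.027). Ikzf1, a factor of lymphoid and myeloid cells, rose by 1.94 ± 0.34 and 2.24 ± 0.35 (adjusted p = 0.029 and 0.016). Myb, Nfe2 and Ikzf1 passed the test in both tumor groups, whereas no globin passed it in intra-C livers. The value of Nfe2 in intra-S livers was 5.26 without control liver 2 and 3.5 without control liver 1, and that in intra-C livers was 4.86 without control liver 2, 3.11 without control liver 1 and 2.91 without intra-C liver 2. Tal1, a partner of GATA1, was at 0.714 and 0.769 CPM in control, 1.20 and 1.73 CPM in intra-C and 5.10 and 2.45 CPM in intra-S livers, and rose in the intra-S livers (2.34 ± 0.50, adjusted p = 0.036, and 1.72 without intra-S liver 1). Klf3, which binds the same sequences as KLF1, rose in intra-C livers (1.57 ± 0.28, adjusted p = 0.029) and Lyl1 in intra-S livers (1.97 ± 0.42, adjusted p = 0.036).

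Heme synthesis split between its red cell step and the rest. Alas2, the erythroid enzyme that starts heme synthesis, was at 5.54 and 8.01 CPM in control, 6.72 and 5.97 CPM in intra-C and 25.8 and 19.4 CPM in intra-S livers. It rose by 1.73 ± 0.28 in intra-S livers on the log2 scale (edgeR adjusted p = 0.018), and its intra-S livers were 1.33-fold apart, as close as those of the globins. Alad, a heme enzyme also made by hepatocytes, fell by 2.04 in intra-S livers (SE 0.45, adjusted p = 0.039), from 263 and 273 CPM to 34.8 and 95.3 CPM. Without intra-S liver 2 it fell by 2.95. The iron carrier gene Slc25a37 fell by 0.93 in intra-C livers (SE 0.19, adjusted p = 0.04). The other 11 of 13 heme genes were not called in intra-S livers and the other 12 were not called in intra-C livers. At an unadjusted p under 0.05, 8 of the 13 were lower in intra-S and 6 in intra-C livers, against 13.0% and 11.8% of all tested genes, and DESeq2 called 4 and 3 lower, against 8.95% and 6.78%. Without overlap, 11 of the 13 were below the control livers in intra-S and 10 in intra-C livers, against 30.0% and 34.0% of all tested genes. Tmem14c, the most abundant of the list per length, was at 234 and 228 TPM in control livers and at 106 and 146 TPM in intra-S livers.

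Of the 12 tested genes of erythropoietin and iron signalling, 11 passed the filter without the intra-S livers. In intra-S livers edgeR called 0 of these, against 6.79% higher and 4.13% lower of the 15649 genes that passed in this way. At an unadjusted p under 0.05 by edgeR, 5 were higher, against 16.6% of those genes. DESeq2 called 5 higher, against 12.2%. Against 4.92% of all tested genes, 2 of the 12 rose in intra-C livers. These were Kit, the receptor of stem cell factor (1.94 ± 0.43, adjusted p = 0.046), and Lyn, a kinase of many blood cells (1.04 ± 0.21, adjusted p = 0.041). Epor, the erythropoietin receptor, had 45 and 59 counts in control, 29 and 27 in intra-C and 60 and 48 in intra-S livers, a difference of 0.26 ± 0.46 in intra-S livers (adjusted p = 0.75). Epo, the hormone itself, did not pass the filter and is named after its values were seen. It had 29 counts in intra-S liver 1, 4 in intra-S liver 2 and 0 in the other 4 livers.

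Among 17 genes of red cell maturation, 14 passed the filter without the intra-S livers. Of these 1 rose and 1 fell in intra-S livers, against 6.79% and 4.13% of all genes that passed in this way. In intra-C livers 1 of 17 rose, against 4.92% of all tested genes. Trim10, a ubiquitin ligase of erythroid cells, had 2 and 10 counts in control, 9 and 6 in intra-C and 184 and 51 in intra-S livers, and passed the filter only through the latter. Its log2 difference in intra-S livers was 4.53, and between 3.14 and 5.97 in the fits without 1 liver. Tent5c, a poly(A) polymerase also made by B lineage cells, rose in both groups, by 1.51 ± 0.29 in intra-S (edgeR adjusted p = 0.029) and by 1.42 ± 0.29 in intra-C livers (adjusted p = 0.04). Hebp1, a heme-binding protein abundant in liver, fell by 1.54 in intra-S livers (SE 0.36, adjusted p = 0.047), and by 2.20 without intra-S liver 2. Car1, carbonic anhydrase 1, was chosen after its values were seen, because it goes against the rest. It had 325 and 300 counts in control livers, 0 and 15 in intra-C livers and 309 and 29 in intra-S livers, so that only intra-S liver 1 was at the level of the controls. Because of that choice no test is read for it. Its difference in intra-C livers was -5.05 ± 1.53 on the log2 scale. That value was -3.99 without intra-C liver 1. It was -11.19 without intra-C liver 2, where the remaining liver is at 0 and the value is no bound.

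Of the 9 genes fixed as markers of red cell precursors, which include Slc4a1, Klf1 and Gata1, Gata1 was at 0 in the control livers and every marker had counts in both intra-S livers. Of the 6 that are not among the 8 genes described here, 3 passed the filter without the intra-S livers. Of these 3, 1 (Alas2) was called higher in intra-S livers, against 6.79% of all genes that passed in this way. In intra-C livers edgeR and DESeq2 called 0 of the 6, and 0 had an unadjusted p under 0.05. The sum of the 9 was between 32.0 and 47.1 TPM in the control livers, between 34.8 and 35.2 TPM in the intra-C livers and between 65.9 and 130 TPM in the intra-S livers. Tfrc, the transferrin receptor that many cells make, was the most abundant of them per length.

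Markers of platelets, macrophages and other cells were read as well, and some of them moved with the tumor groups. Of 8 platelet and megakaryocyte markers, which share factors with red cells, 4 passed the filter without the intra-S livers. Of these 4, 3 rose in intra-S livers, against 6.79% of all genes that passed in that way. Of all 8, 3 rose in intra-C livers, against 4.92% of all tested genes. In intra-C livers 7 of the 8 were above the control livers without overlap and 1, Gp1ba, was below, against 34.4% and 34.0% of all tested genes, with a median log2 difference of 2.96. Their sum was between 3.71 and 3.85 TPM in control, between 13.4 and 31.5 TPM in intra-C and between 32.8 and 36.7 TPM in intra-S livers. Itga2b was the highest of them per length in both control livers, Ppbp in both intra-C livers and intra-S liver 2, and Pf4 in intra-S liver 1. Of 8 markers of macrophages that clear red cells, 6 rose in intra-S and 5 in intra-C livers, against 6.78% and 4.92% of all genes. Their sum was between 226 and 234 TPM in control, between 585 and 742 TPM in intra-C and between 653 and 677 TPM in intra-S livers. Slc40a1 was the highest of them per length in both control livers and intra-S liver 1, and Clec4f in the other 3. The part of these cells in the globin values of the intra-S livers was not tested. Of 6 markers fixed for B cells of the spleen, edgeR and DESeq2 called 0 in either comparison with control. At an unadjusted p under 0.05 by edgeR, 2 were lower in intra-C livers, against 11.8% of all tested genes. The 6 markers summed to between 4.36 and 4.86 TPM in control and between 1.51 and 1.75 TPM in intra-C livers. In intra-S livers they summed to between 2.37 and 4.57 TPM, so that the intra-C livers were below the others. The median log2 difference of these markers in intra-C livers was -1.48, and 5 of the 6 were lower without overlap, against 34.0% of all tested genes. Gata1 is also made by mast cells and eosinophils. Of 4 mast cell and basophil genes present only 2 were tested, and 1, Hdc, rose in both groups, while Cpa3 was at 0 in the control and intra-S livers. Of 3 eosinophil genes 2 were tested, and for the 1 that did not need a tumor group to pass the filter, Ccr3, edgeR made 0 calls (it was higher at an unadjusted p under 0.05 in each comparison with control, and DESeq2 called it in both), while Prg2 and Siglecf were at 0 in the control livers. Of the 8 hepatocyte markers, 1 rose in intra-S livers, and 1 rose and 1 fell in intra-C livers. Over all tested genes 6.78% rose in intra-S livers, and 4.92% rose and 2.38% fell in intra-C livers.

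Across the 6 livers the globins followed each other most closely. Pearson's r of log2 CPM between any pair of them was between 0.956 and 0.996, whereas Klf1 had an r of 0.37 to 0.752 with the other genes and Gata1 of 0.37 to 0.833. These are descriptions over 6 livers that share the difference of the intra-S group. Among the 2698 genes that averaged 1 CPM or more and spanned 2 log2 units or more, the profile most like the mean of the 8 genes was that of Alas2 (r = 0.996). Trim10 (0.983), Fgf23 (0.978), Hemgn (0.972), Ptges (0.969), Kcne4 (0.968), Arl2bp (0.965), AI413582 (0.965) and Foxf1 (0.965) were also among the 10 closest. Among the 5 genes closest to Hbb-bs were Hba-a1 (0.996), Hbb-bt (0.990), Alas2 (0.988) and AI413582 (0.973), and among the 5 closest to Slc4a1 were Hemgn (0.991), Cdh1 (0.985), Trim10 (0.983) and AI413582 (0.982).

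Alas2, Trim10 and Hemgn were on the list of red cell genes and the others were not. Hemgn, a nuclear protein of blood progenitors, had 0 and 9 counts in control, 6 and 5 in intra-C and 209 and 49 in intra-S livers. Fgf23, a hormone that bone makes to control phosphate, was at 90.8 and 3.90 CPM in the intra-S livers, at 0.0509 and 0 CPM in the intra-C livers and at 0 in both control livers. Its intra-S livers were therefore further apart than those of Slc4a1.

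The θ-globin gene Hbq1b, which did not pass the filter, had 0 counts in both control livers, 9 and 0 in intra-C and 24 and 5 in intra-S livers. The embryonic globin genes Hba-x, Hbb-y, Hbb-bh1 and Hbb-bh2 and the chaperone gene Ahsp were not analysed here.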

How the data were processed

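Polyadenylated RNA of 6 whole livers was sequenced, 2 per group. HISAT2 2.1.0 (reference mm10) and featureCounts of Subread 2.0.6 were run by the authors, who kept uniquely aligned exon reads and deposited raw counts per gene together with TPM values derived from these counts. The annotation and the use of strand are not given in the sources used here. From the counts, TMM-normalized CPM were computed, and groups were compared with edgeR 4.0.16 (R 4.3.3), using 1 quasi-likelihood fit over all 6 livers, the filterByExpr filter (count minimum 10) and Benjamini-Hochberg adjustment over 16370 of 20140 genes, called at an adjusted p under 0.05. The procedure was tested on simulated data. Log2 CPM carry a prior count of 2, and limits use a floor of 3 counts (0.0679 to 0.0928 CPM), which covers counting error only. The design calls the 2 livers of a group biological replicates, and no source names the animals.

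The genes, the lists and the rule for naming genes were chosen with earlier results of these data known. By that rule all 8 genes are named, and for each list up to 4 called genes per comparison with the largest difference, the most abundant gene per length over the 6 livers and markers at 0, plus the genes most similar to the 8, to Hbb-bs and to Slc4a1. Alternatives were DESeq2 1.42.0, limma 3.58.1 on log2(TPM + 1) and log2(TPM + 0.1), other filters and scalings, the 2 groups compared alone, a replicate block and each liver left out. All 20140 symbols were found in the RefSeq table of GRCm38.p6, which gave positions and promoters. A few genes that this rule names are not reported here.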

Additional observations from a re-analysis of the deposited data

Results flagged for a closer look

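In 2 of the red cell genes both intra-C livers lay on one side of both control livers and both intra-S livers on the other. Sox6, a repressor of embryonic globin genes, had log2 differences from control of 0.76 in intra-C and -0.59 in intra-S livers, at 10.8 and 11.8 CPM in control, 18.5 and 19.9 CPM in intra-C and 6.62 and 8.41 CPM in intra-S livers. Car2, carbonic anhydrase 2, had log2 differences of -0.77 and 1.97, at 5.25 and 7.58 CPM in control, 4.53 and 2.97 CPM in intra-C and 39.7 and 10.7 CPM in intra-S livers. By edgeR's quasi-likelihood test neither gene was called in any comparison. The difference of intra-S from intra-C livers was -1.36 ± 0.22 on the log2 scale for Sox6 and 2.75 ± 0.63 for Car2. Both genes were picked for the separation of the groups, so no p-value is given. The share of all genes with this order of livers was not computed. Between intra-S and intra-C livers edgeR called 0 of 16370 genes.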

How the results depend on the processing

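Outside the fits that leave out a liver, 70 of 96 alternative values of the comparisons kept their side or stayed close, 24 moved and 2 changed sign, and of 533 values of single named genes 446 kept their direction and their side of the threshold. The other red cell genes called in intra-S against control livers (13 higher, 2 lower) were 33 and 7 with DESeq2, 6 higher with at least 10 counts in every liver, 5 and 8 with limma on log2(TPM + 1), 7 higher on log2(TPM + 0.1), 1 and 0 in the fit of these 2 groups alone and 6 lower without TMM. In intra-C against control livers (8 and 2) they were 13 and 4 with DESeq2, 13 and 10 in the fit of these 2 groups alone, 5 higher without TMM, 4 higher on log2(TPM + 1), and 2 and 0 on log2(TPM + 0.1). In intra-S against intra-C livers DESeq2 called 10 and 1. These counts include genes that needed a tumor group to pass the filter, and those over all genes moved as well. DESeq2 called 12.6% higher and 8.95% lower of all genes in intra-S and 10.4% and 6.78% in intra-C against control livers, and the fits of 2 groups alone 1.75% and 0.734% in intra-S and 16.3% and 14.2% in intra-C, so that 13 and 10 of 76 are near that background. Among the 8 genes in intra-C against control livers DESeq2 called 1 higher (Gata1, which passed the filter through the intra-S livers, so nothing is read from it) and the fit of these 2 groups alone 1 lower (Klf1). The median difference of the 8 genes between intra-S and control livers (2.22) was 1.72 on log2(TPM + 1). Globins minus the other 4 genes, intra-S minus control (-1.61), was 0.62 on log2(TPM + 1) and -2.48 with a prior count of 0.5, and intra-S minus intra-C (-0.95) was 0.80 on log2(TPM + 1). The cause of these changes was not tested. Without TMM the median of all genes moved to -0.23 (intra-S) and -0.25 (intra-C) against control. The difference of Hba-a1, Hbb-bs and Epb42 between intra-C and control livers then became -0.23, -0.14 and -0.20, and it was -0.13, -0.030 and -0.0025 on log2(TPM + 1) and -0.13, -0.030 and -0.036 on log2(TPM + 0.1). The replicate numbers did not pair the livers (correlation of same-numbered deviations between -0.032 and 0.083), and with them as a block the red cell genes called were 14 higher and 2 lower in intra-S and 6 higher and 0 lower in intra-C livers, and Hba-a1 in intra-C livers was -0.0040. Leaving out each liver in turn, with a lone liver assumed to vary like the other groups, gave 0 to 38 higher and 0 to 15 lower red cell genes in intra-S, 0 to 14 and 0 to 11 in intra-C against control, and 0 to 29 and 0 to 8 in intra-S against intra-C livers. Over all genes the shares called higher in these fits were 0.00% to 18.2%, 0.00% to 15.5% and 0.00% to 7.70%. The medians of the 8 genes were 1.82 to 2.79 (intra-S against control) and 2.04 to 2.95 (against intra-C), and 0 of them were called higher and 0 to 1 lower in intra-C livers. Globins minus the others was -2.36 to -0.86 in intra-S minus control, -1.71 to -0.20 in intra-S minus intra-C and -1.33 to 0.020 in intra-C minus control livers. In intra-C against control livers it gave -0.39 to 0.54 for Hba-a1, -0.21 to 0.59 for Hbb-bs, -0.64 to 0.50 for Hbb-bt, -1.34 to 0.79 for Epb42 and -0.21 to 7.56 for Slc4a1. Relabelling 2 against 2 livers cannot give an exact p under 0.05. A count of 0 stands for up to 0.0679 to 0.0928 CPM, so the absence of Gata1 from control livers holds to that level only.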
